A study of Mus musculus with 36 samples.

Results

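Bone marrow mesenchymal stem cells (MSCs) were compared with non-bone marrow MSCs by RNA-seq, and the genes of interest were those that differed in 1 direction between each bone marrow site and each non-bone marrow tissue. The comparison held 11 libraries of the 36 samples of the series. Of these, 5 came from bone marrow, namely 3 of femoral bone marrow MSCs (fBM-MSCs) and 2 of vertebral bone marrow MSCs (vBM-MSCs). The other 6 were non-bone marrow libraries, namely 3 of adipose MSCs (A-MSCs) and 3 of pulmonary MSCs (P-MSCs), which came from lung. All cells came from 8-week-old C57BL6/J mice, were grown on collagen I in MesenCult medium with MesenPure and a Rock inhibitor, and were used within 3 passages. Per the study's own results text the 4 tissues were taken from the same mice, 3 in number, but which libraries share a mouse was not given. The vBM-MSC line of replicate 3 did not enter the comparison. Bone marrow cells were released by crushing the bone, whereas adipose and lung tissue were minced and digested with collagenase. Tissue origin and way of release therefore cannot be told apart in the comparison of bone marrow with non-bone marrow MSCs, whereas the libraries within each arm shared 1 way of release.

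MSCs are adherent stromal cells that can form bone, cartilage and fat in culture. In bone marrow, stromal cells of this kind give rise to osteoblasts, which lay down and mineralize the collagen matrix of bone, and they also hold blood stem cells in place through secreted factors. Fibroblastic cells of adipose tissue and lung arise from other parts of the mesoderm, and transcription factors such as Tcf21 and the GATA family mark mesenchyme around internal organs.

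Each contrast was the mean of fBM-MSCs and vBM-MSCs minus the mean of A-MSCs and P-MSCs on the log2 scale of edgeR's quasi-likelihood fit, so positive values are higher in bone marrow. A call needed a Benjamini-Hochberg adjusted p under 0.05. Of 12509 genes tested, 3096 were higher in bone marrow MSCs, which is 24.8%, and 2805 were lower, which is 22.4%. A gene was concordant when it passed that threshold in 1 direction in each of the 4 pairs of tissues (fBM-MSCs against A-MSCs, fBM-MSCs against P-MSCs, and the same for vBM-MSCs). There were 757 concordant higher genes, 6.05% of those tested, and 751 concordant lower genes, 6.0%. The 4 pairs share libraries, so this count is what the rule gives and not 4 separate observations. The directions held like numbers of genes, but 364 of the higher and 301 of the lower genes differed by at least 2-fold in each pair, and 85 and 17 by at least 8-fold. Every bone marrow library lay above every non-bone marrow library for 730 of the 757 higher genes, and below for 744 of the 751 lower genes. The arms were not uniform in themselves. The bone marrow sites differed from each other in 12.8% of the tested genes and the non-bone marrow tissues in 30.9%. The count behind the first share fell from 1601 to 610 without vBM-MSCs replicate 1, where the lone vBM-MSC library is assumed to vary like the others.

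The library depths ranged from 19569650 to 40517739 expected counts, and the median log2 difference over all tested genes was 0.03. Of the positive MSC markers, Ly6a, which encodes Sca-1, was between 256.0 and 805.5 TPM (a transcript level scaled for transcript length and for the total of the library) in bone marrow libraries and between 42.3 and 144.6 TPM in the others, and Itgb1, which encodes CD29, ranged from 465.7 to 1051 TPM over all libraries. Nt5e, which encodes CD73, read 0.32 to 45.6 TPM in bone marrow libraries and at most 0.86 TPM in the others (log2 difference 4.97 ± 0.83, adjusted p = 0.000479). Of the negative markers, Ptprc (CD45) did not exceed 0.35 TPM and Pecam1 (CD31) did not exceed 3.84 TPM. Cd34 was the exception, at 79.2, 72.7 and 10.2 TPM in fBM-MSCs, 7.33 and 7.46 TPM in vBM-MSCs and 0.91 to 5.15 TPM in the non-bone marrow libraries, with a log2 difference of 3.43 ± 0.47 (SE, adjusted p = 0.000114). Cd34 shares exon sequence with Gm16897 on this unstranded assay, and their reads cannot be told apart.

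The genes furthest apart in the higher direction were ranked by the smallest of their 4 pairwise differences. The leading 12 were Wif1, Ibsp, Slitrk6, Tnn, Gprin3, Cd244, Tmie, Fcer1g, Susd5, Atp6v0d2, Ncf1 and Comp. Ibsp, Tnn, Comp and Wif1 are known from bone and cartilage, and Cd244, Fcer1g, Ncf1 and Atp6v0d2 from blood cells or osteoclasts.

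Wif1 encodes a secreted inhibitor that binds Wnt proteins, and the gene spans chr10:121034004-121100642 on the plus strand of mm10 in 10 exons. Its TPM was 5.78, 7.10 and 32.9 in fBM-MSCs and 10.1 and 24.5 in vBM-MSCs, and no count fell on it in any of the 6 non-bone marrow libraries. The groups did not overlap. Against a floor of 3 counts over those 6 libraries, Wif1 was at least 1783-fold higher in bone marrow MSCs. Slitrk6, which encodes a neuronal transmembrane protein, was likewise without a count outside bone marrow and was at least 1050-fold higher. It reached 11.54 TPM in fBM-MSCs replicate 3 but only 0.33 TPM in vBM-MSCs replicate 1.

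Ibsp encodes bone sialoprotein, which binds the mineral of bone, and lies at chr5:104299287-104311472 on the plus strand with 7 exons. Its TPM was 218.4, 286.4 and 1010 in fBM-MSCs, 16.9 and 320.8 in vBM-MSCs, and at most 0.08 in any non-bone marrow library. All 5 bone marrow libraries stood above the other 6, with vBM-MSCs replicate 1 far below the next one. The log2 difference was 14.02 ± 1.15 (SE, adjusted p = 2.68e-06). Only 4 counts fell on Ibsp outside bone marrow, so this size depends on the fit's prior count. Tnn, which encodes the matrix protein tenascin-N (chr1:160085029-160153575, minus strand, 22 exons), had 2833 counts in bone marrow MSCs and 1 in the others. The ratio was 3988, with an exact 95% counting interval from 715.2 to 157600. Such intervals cover counting error only.

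Comp, which encodes cartilage oligomeric matrix protein, gave 36.8, 7.65 and 88.1 TPM in fBM-MSCs and 109.2 and 97.6 TPM in vBM-MSCs. The non-bone marrow libraries lay between 0 and 0.87 TPM. Here the lowest bone marrow library was fBM-MSCs replicate 2 and both vBM-MSC libraries were high, with a log2 difference of 9.16 ± 0.93 (SE, adjusted p = 1.33e-05).

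Atp6v0d2 encodes a subunit of the vacuolar proton pump that is abundant in osteoclasts, the cells that resorb bone (chr4:19876838-19922566, minus strand, 8 exons). Its TPM was 20.9, 23.0 and 15.04 in fBM-MSCs and 0.11 and 0.83 in vBM-MSCs, with no count elsewhere. It was at least 1283-fold higher in bone marrow MSCs over the arm as a whole, and the difference was carried mostly by fBM-MSCs. Fcer1g, an adaptor of immune receptors, Cd244, a receptor of natural killer cells, and Ncf1, a subunit of the phagocyte oxidase, had no counts outside bone marrow either. Fcer1g read 4.70, 15.9 and 19.8 TPM in fBM-MSCs, 0 and 8.21 TPM in vBM-MSCs. Cd244 read 0.73, 2.43 and 3.39 TPM in fBM-MSCs, 0 and 1.25 TPM in vBM-MSCs. For both genes vBM-MSCs replicate 1 was at 0, so the groups touched. Against the floor over the 6 libraries the arm was at least 205.0-fold higher for Fcer1g, at least 304.1-fold for Cd244 and at least 158.6-fold for Ncf1. Without vBM-MSCs replicate 2 neither Fcer1g nor Cd244 passed the threshold (adjusted p = 1 for both in edgeR's quasi-likelihood test).

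Because these genes are known from blood cells, the macrophage markers were set beside them. Of the 18 markers in the list, 6 were expressed highly enough to be tested, and their summed TPM ranged from 24.7 to 71.9 in bone marrow libraries and from 19.5 to 32.4 in the others. Lyz2 (lysozyme) was higher, at 19.8 to 38.6 TPM against 1.76 to 12.8 TPM, and Fcer1g as given above. Csf1r, the receptor for CSF1, was lower, at 0.60 to 1.16 TPM against 2.21 to 6.56 TPM. Mgl2 was seen only outside bone marrow, at 12.8 to 15.4 TPM in P-MSCs. Its lowest non-bone marrow library was at 0 and the median of the 6 was 6.395 TPM, so A-MSCs were at or near 0. Mgl2 was not concordant. Pooled over A-MSCs and P-MSCs it was at least 323.9-fold higher outside bone marrow, and its call was lost without A-MSCs replicate 2 (adjusted p = 1). Cd68, a lysosomal protein of macrophages, read 13.09, 18.47 and 12.27 TPM in fBM-MSCs, 0.87 and 2.72 TPM in vBM-MSCs and 3.47 to 7.38 TPM elsewhere, and it did not pass the threshold (log2 difference −0.28 ± 0.30, adjusted p = 0.462). Cd14 did not pass either, at 2.61 to 4.36 TPM against 1.20 to 5.60 TPM. The 12 untested markers were low throughout. Ptprc, Adgre1, Itgam, Fcgr1, C1qa, C1qb, Cd163 and Mrc1 were at 0.10 TPM or less in every bone marrow library, while Tyrobp reached 0.58 TPM, Laptm5 and Spi1 0.50 TPM and C1qc 0.25 TPM. Of 10 erythroid markers 1 was expressed highly enough to be tested and it did not pass the threshold, except without A-MSCs replicate 2, and the summed TPM of the erythroid list was at most 1.67 in any library. None of the 14 lymphoid and granulocyte markers passed the count filter for testing. One of them, S100a8, still read 8.30, 10.21 and 0.57 TPM in fBM-MSCs and 1.74 and 0.70 TPM in vBM-MSCs. It read 3.38 to 15.41 TPM in A-MSCs and 3.32 to 6.12 TPM in P-MSCs. The part of blood cells in these differences was not tested.

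**Figure D1:**
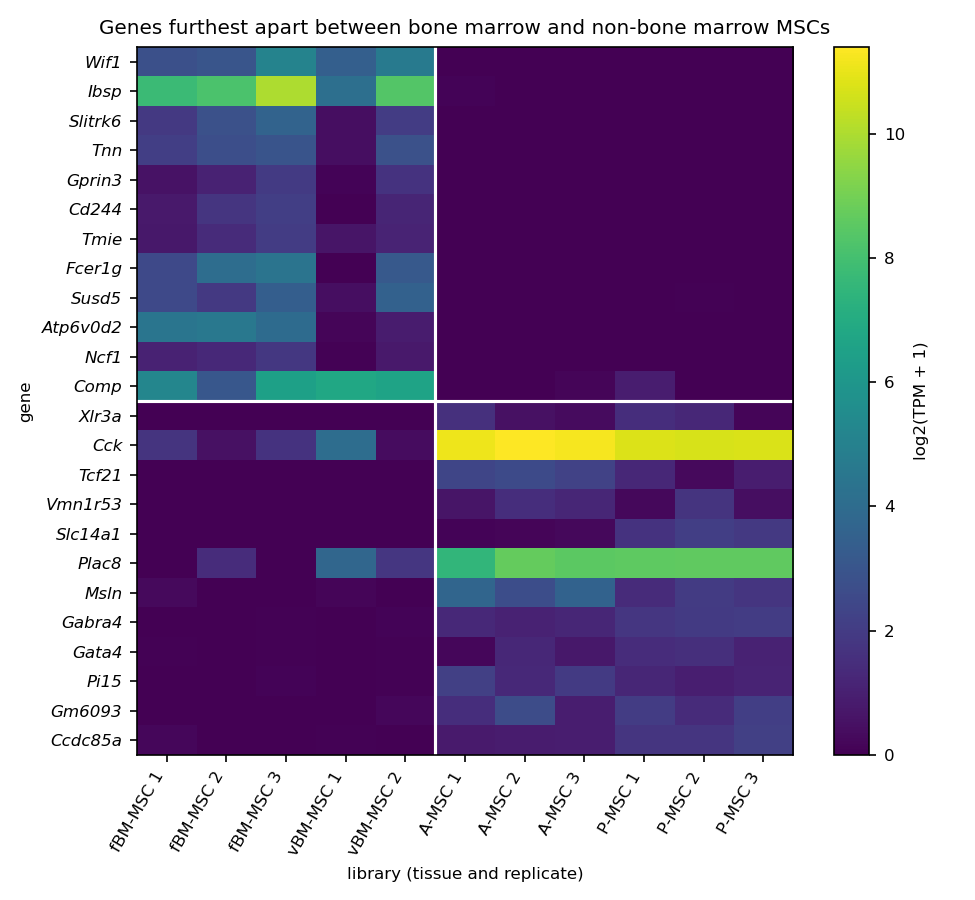
Each row is 1 of the 12 genes furthest higher (upper block) or the 12 furthest lower (lower block) in bone marrow MSCs, each column is 1 library, and colour gives log2(TPM + 1). White lines part bone marrow from non-bone marrow libraries. The higher values lie in the upper left and lower right blocks. All rows share 1 colour scale that reaches the level of Cck, so rows of a few TPM stay near its dark end. The faintest bone marrow library was vBM-MSC 1 for 10 of the 12 upper genes, the others being Wif1 and Comp.

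In the lower direction the leading 12 genes were Xlr3a, Cck, Tcf21, Vmn1r53, Slc14a1, Plac8, Msln, Gabra4, Gata4, Pi15, Gm6093 and Ccdc85a. Xlr3a and Vmn1r53 belong to multigene families and Gm6093 is a predicted gene, and whether RSEM shared reads between these 3 and similar genes was not tested. Cck and Plac8 were abundant, and the rest did not exceed 12.2 TPM in any library.

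Cck encodes the peptide hormone cholecystokinin (chr9:121489824-121495694, minus strand, 3 or 4 exons by transcript). Its TPM was 2197, 2694 and 2417 in A-MSCs and 1759, 1653 and 1748 in P-MSCs. In bone marrow it was 2.25, 0.44 and 2.16 TPM in fBM-MSCs and 15.6 and 0.30 TPM in vBM-MSCs. The groups were far apart in every library. Plac8, a small cysteine-rich protein (chr5:100553726-100572205, minus strand, 5 exons), stood at 181.7, 410.8 and 362.5 TPM in A-MSCs and 383.5, 387.9 and 389.3 TPM in P-MSCs, against 0, 1.72 and 0 TPM in fBM-MSCs and 12.6 and 2.48 TPM in vBM-MSCs. For both genes the highest bone marrow library was vBM-MSCs replicate 1. The log2 differences were −9.15 ± 0.71 (SE, adjusted p = 1.84e-06) and −7.33 ± 0.58 (SE, adjusted p = 2.19e-06).

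Tcf21, a transcription factor of visceral mesenchyme (chr10:22817263-22820143, minus strand, 2 exons), had no count in the 5 bone marrow libraries. It was at 4.20, 4.85 and 3.82 TPM in A-MSCs and at 1.44, 0.24 and 0.90 TPM in P-MSCs, at least 90.0-fold higher outside bone marrow. Gata4, a zinc finger factor of heart and visceral mesenchyme, was at 0.05 TPM or less in bone marrow libraries. It read 0.16, 1.43 and 0.67 TPM in A-MSCs and 1.71, 1.91 and 1.14 TPM in P-MSCs, with a log2 difference of −5.18 ± 0.91 (SE, adjusted p = 0.000657). Slc14a1, a urea transporter, had no count in bone marrow and was at 0.07 to 0.19 TPM in A-MSCs and 2.15 to 3.35 TPM in P-MSCs, at least 173.3-fold higher outside bone marrow. Msln encodes mesothelin, a surface protein of the mesothelium, and read 5.37 to 12.2 TPM in A-MSCs, 1.61 to 2.94 TPM in P-MSCs and at most 0.24 TPM in bone marrow MSCs. Pi15, a secreted CAP-family protein, read 0.92 to 3.43 TPM against at most 0.07 TPM, and Gabra4, a GABA receptor subunit, 1.10 to 3.06 TPM against at most 0.08 TPM.

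Ranked by level in place of difference, the leading concordant higher genes were Spp1, Fth1, Mgp, Hmox1, Ubb and Cst3. Spp1 encodes osteopontin, an acidic matrix protein of bone. It read 26353, 38360 and 84015 TPM in fBM-MSCs and 1562 and 9037 TPM in vBM-MSCs, against 160.5 to 384.3 TPM in the non-bone marrow libraries. The log2 difference was 5.80 ± 0.45 (SE, adjusted p = 1.84e-06). Mgp, matrix Gla protein, an inhibitor of calcification, was higher in vBM-MSCs, at 15214 and 17832 TPM, than in fBM-MSCs, at 6477, 5207 and 3860 TPM, and both lay above the 309.3 to 1274 TPM of the others. Its log2 difference was 3.86 ± 0.18 (SE, adjusted p = 8.41e-08). Fth1, the ferritin heavy chain that stores iron, read 24805, 26108 and 25475 TPM in fBM-MSCs, 11507 and 12597 TPM in vBM-MSCs and 6461 to 7639 TPM elsewhere (log2 difference 1.30 ± 0.07, adjusted p = 1.41e-07). Hmox1, which degrades haem, read 3747 to 4498 TPM in bone marrow against 1274 to 2953 TPM (log2 difference 1.02 ± 0.08, adjusted p = 2.86e-06). Cst3, a cysteine protease inhibitor, differed by 1.31 ± 0.15 (SE, adjusted p = 2.93e-05), and Ubb, a ubiquitin gene, by 0.58 ± 0.09 (SE, adjusted p = 0.0002).

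The most abundant concordant lower genes differed by less. They were the ribosomal protein genes Rps2 and Rps23, the tubulin gene Tuba1b, the cytokine gene Mif, the lactate dehydrogenase gene Ldha and the chaperone gene Hspa8. Tuba1b was at 869.1 to 1522 TPM in bone marrow libraries and at 2673 to 3565 TPM in the others, a log2 difference of −1.29 ± 0.11 (SE, adjusted p = 2.67e-06). Rps2 differed by −0.52 ± 0.09 (SE, adjusted p = 0.000529) and Rps23 by −0.47 ± 0.10 (SE, adjusted p = 0.00225). Ribosomal protein genes are known for processed copies in the genome, and a sharing of reads with these was not tested.

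Open chromatin at promoters was taken from the ATAC-seq peaks, a readout that did not enter the choice of genes. Each tissue had 1 peak list pooled over its samples, so no test of replicates was possible. A gene had a promoter peak where a summit with a −log10 q of at least 7 lay within 1 kb of a transcription start site. The peak lists cover the 19 autosomes, so genes on the sex chromosomes were not used, and 488 tested genes were left out in all. Of the 12021 tested genes with a start site on these chromosomes, 82.4% had a promoter peak in all 4 tissues. A peak in both bone marrow lists and in neither non-bone marrow list was seen for 0.47% of all tested genes, and for 23 of 731 concordant higher genes, which is 3.15% (exact binomial 95% interval 2.0 to 4.68%). Among the concordant higher genes with at least 2-fold in each pair it was 22 of 355, or 6.20%. With every deposited peak these shares were 1.64% and 3.10%, where all tested genes gave 0.28%. The reverse pattern, a peak in A-MSCs and P-MSCs alone, was seen for 0.89% of all tested genes and for 11 of 716 concordant lower genes, which is 1.54% (0.77 to 2.73%). That share was 0.84% with every deposited peak and 4.89% at a −log10 q of at least 20, where all tested genes gave 0.44% and 2.40%. For the lower genes with at least 2-fold in each pair it was 3.82%, with 2.08% and 7.29% under those settings. The intervals cover counting error only. Most concordant genes had a peak in all 4 tissues, 75.9% of the higher and 88.3% of the lower ones.

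**Figure D2:**
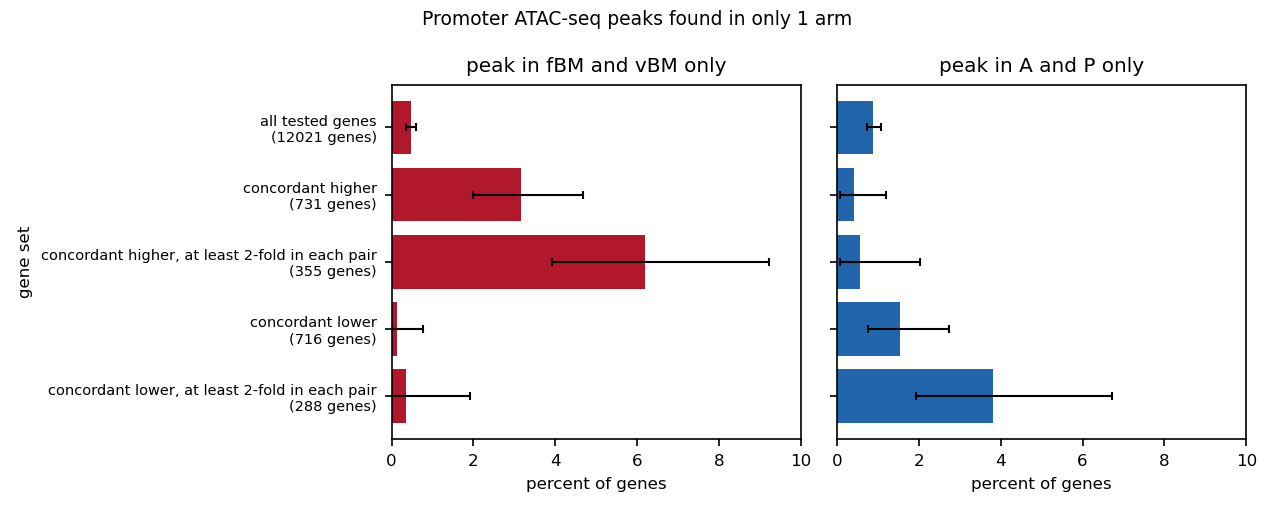
Bars give the percent of genes with a promoter peak in both bone marrow lists and neither other list (left) or in both non-bone marrow lists and neither bone marrow list (right), with exact binomial 95% intervals as error bars. The left panel is highest for concordant higher genes of at least 2-fold in each pair (6.20%), and the right panel for concordant lower genes of at least 2-fold (3.82%).

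The 23 genes with a bone marrow promoter peak alone included Dlx5, Mmp13, Mgp, Atp6v0d2, Clec11a, S100b, Aldh3a1 and Galnt13, named here after their values were seen. Dlx5, a homeobox factor of osteoblasts, had summits of 13.98-fold enrichment in fBM-MSCs and 7.36-fold in vBM-MSCs. Clec11a encodes a secreted growth factor that promotes bone formation, and rose by 4.96 on the log2 scale with summits of 5.52-fold and 6.62-fold. At Atp6v0d2 the summit lay 44 bases before the start site in fBM-MSCs (29.43-fold over background) and 35 bases before it in vBM-MSCs (11.41-fold), and its TPM was higher in fBM-MSCs as well. At Mgp the order was the other way in both readouts, with 7.36-fold in fBM-MSCs and 14.72-fold in vBM-MSCs. The 11 genes with the reverse pattern included Cck and Plac8, and also Avpr1a, a vasopressin receptor, and Slc16a3, a lactate exporter. The pattern was not one-to-one with level. Sfrp4, which rose by 7.57 on the log2 scale in bone marrow MSCs, had its promoter peak in the A-MSC and P-MSC lists alone. Wif1 had a promoter peak in all 4 lists although it had no counts in A-MSCs and P-MSCs.

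The promoters of Cck and Plac8, as the furthest lower genes with this peak pattern, and of Mmp13, as a higher gene with the reverse one, were read from 250 bases before to 50 after the start site (RefSeq, GRCm38.p6, which has the coordinates of mm10). Capitals mark the motifs searched on both strands. For RUNX factors these were TGTGGT and also TGCGGT. For AP-1 factors TGACTCA was searched, which reads TGAGTCA on the other strand. For homeobox factors TAATTA was searched. For GATA factors AGATAA was searched. A site read on the other strand shows as the reverse complement, ACCACA for TGTGGT. Plac8 had a second start site in the table, at chr5:100563047-100563346, whose promoter held none of the motifs and is not printed. Cck is at chr9:121495645-121495944 and the printed Plac8 promoter at chr5:100572156-100572455, both on the minus strand, and Mmp13 is at chr9:7272264-7272563 on the plus strand.
Cck: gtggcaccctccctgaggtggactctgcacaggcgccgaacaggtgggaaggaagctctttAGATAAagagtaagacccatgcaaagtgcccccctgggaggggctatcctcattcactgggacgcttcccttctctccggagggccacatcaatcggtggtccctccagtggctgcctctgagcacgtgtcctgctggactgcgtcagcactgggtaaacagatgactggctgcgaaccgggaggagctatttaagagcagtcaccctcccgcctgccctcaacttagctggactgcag
Plac8: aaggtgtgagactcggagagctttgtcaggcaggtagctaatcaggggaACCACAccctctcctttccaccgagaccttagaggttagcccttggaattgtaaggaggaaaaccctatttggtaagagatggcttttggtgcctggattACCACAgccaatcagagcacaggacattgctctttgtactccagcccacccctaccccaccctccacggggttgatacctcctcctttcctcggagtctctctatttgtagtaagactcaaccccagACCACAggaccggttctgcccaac
Mmp13: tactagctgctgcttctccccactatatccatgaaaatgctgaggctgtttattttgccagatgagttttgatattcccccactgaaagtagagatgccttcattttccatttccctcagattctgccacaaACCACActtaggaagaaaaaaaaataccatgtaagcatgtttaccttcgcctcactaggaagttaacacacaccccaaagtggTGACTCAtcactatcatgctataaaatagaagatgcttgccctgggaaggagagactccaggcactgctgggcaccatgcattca

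Cck held 1 AGATAA, the printed Plac8 promoter held 3 TGTGGT on the other strand, and Mmp13 held 1 TGTGGT on the other strand and 1 TGACTCA. Of the 32851 promoters in the same table, 11.2% held AGATAA, 16.8% held TGTGGT and 5.20% held TGACTCA on either strand, so each of these matches is common by itself. The summit at Mmp13 lay 67 bases before the start in fBM-MSCs and 6 bases before it in vBM-MSCs. At Cck the summits lay 38 bases after the start in A-MSCs and 52 before it in P-MSCs.

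Genes of bone formation were higher in bone marrow MSCs. Of 17 tested members of a list of bone matrix and mineralization genes, 15 were higher and none was lower, against 24.8% and 22.4% of all genes, and 12 were concordant higher, against 6.05%. The median log2 difference of the list was 4.58. Without any 1 library, 14 to 16 of them were higher. Alpl, the alkaline phosphatase that frees phosphate for mineral, gave 35.6, 27.6 and 173.3 TPM in fBM-MSCs and 11.6 and 76.9 TPM in vBM-MSCs, and at most 0.54 TPM elsewhere. Dmp1, a matrix protein of osteocytes, gave 40.4, 96.7 and 159.1 TPM in fBM-MSCs and 0.80 and 17.2 TPM in vBM-MSCs, and at most 0.20 TPM elsewhere. In each gene fBM-MSCs replicate 3 was the highest library and vBM-MSCs replicate 1 the lowest of the bone marrow. The log2 differences were 10.93 ± 1.15 (SE, adjusted p = 4.96e-05) for Alpl and 10.37 ± 1.01 (SE, adjusted p = 1.01e-05) for Dmp1. The osteocalcin genes Bglap and Bglap2, near copies of each other that RSEM splits by its model, behaved alike. Bglap read 155.0 to 1065 TPM in fBM-MSCs, 4.10 and 73.7 TPM in vBM-MSCs and at most 0.90 TPM elsewhere. Col1a1, the main collagen of bone but also of most fibroblasts, differed by 0.79 ± 0.24 (SE, adjusted p = 0.0177) and was not concordant. Without vBM-MSCs replicate 2 its difference was 0.73 and did not pass (adjusted p = 0.0536).

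Of 16 tested osteoblast transcription factors, 10 were higher and 1 lower, where all tested genes gave 24.8% and 22.4%. The count lower was 2 without fBM-MSCs replicate 3 and 0 without vBM-MSCs replicate 2. The 3 concordant ones, all higher, were Sp7, Dlx5 and Runx3, where 6.05% of all genes were concordant higher. Sp7 encodes osterix, which commits cells to the osteoblast line. It read 10.1, 23.7 and 64.3 TPM in fBM-MSCs, 2.62 and 9.71 TPM in vBM-MSCs and at most 0.16 TPM elsewhere. Dlx5 read 9.09, 17.8 and 44.3 TPM in fBM-MSCs, 0.27 and 5.97 TPM in vBM-MSCs and at most 0.16 TPM elsewhere. The groups did not overlap for either. Their log2 differences were 9.85 ± 0.86 (SE, adjusted p = 1.54e-05) and 9.12 ± 1.19 (SE, adjusted p = 0.000196), and that of Runx3 was 6.46 ± 1.09 (SE, adjusted p = 0.000515). Runx2, the master factor of the osteoblast line, was called higher by much less, 0.84 ± 0.23 (SE, adjusted p = 0.00941). It read 2.55 to 12.5 TPM in bone marrow and 2.30 to 4.23 TPM elsewhere, so the libraries overlapped. Twist2, which restrains osteoblast maturation, was the member that was lower, −1.65 ± 0.46 (SE, adjusted p = 0.0117). Within bone marrow it ranged from 1.09 TPM in fBM-MSCs replicate 3 to 28.5 TPM in vBM-MSCs replicate 1, and the others lay between 27.0 and 45.5 TPM. Without vBM-MSCs replicate 2 the difference of Twist2 was −1.44 and did not pass (adjusted p = 0.0519).

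Of 12 cartilage genes tested, 10 were higher and 1 lower (24.8% and 22.4% over all genes), and 5 were concordant higher (6.05%). The lower one was Matn3, a matrilin of cartilage, at 0 to 0.28 TPM in bone marrow and 0 to 1.46 TPM elsewhere (log2 difference −4.53 ± 1.44, adjusted p = 0.0264). Its call was lost with the replicate number as a block (adjusted p = 0.0708), with limma on log2(TPM + 1) (adjusted p = 0.119), and without vBM-MSCs replicate 1 (0.073) or replicate 2 (0.0674). Pth1r, the parathyroid hormone receptor of growth plate and bone, differed by 5.81 ± 0.71 (SE, adjusted p = 5.34e-05), and Col10a1, the collagen of hypertrophic cartilage, by 6.67 ± 0.67 (SE, adjusted p = 1.19e-05). Col2a1, the collagen of cartilage proper, read 75.1 TPM in vBM-MSCs replicate 2 but 0.43 to 4.92 TPM in the other bone marrow libraries, and it overlapped P-MSCs replicate 1 at 4.21 TPM.

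**Figure D3:**
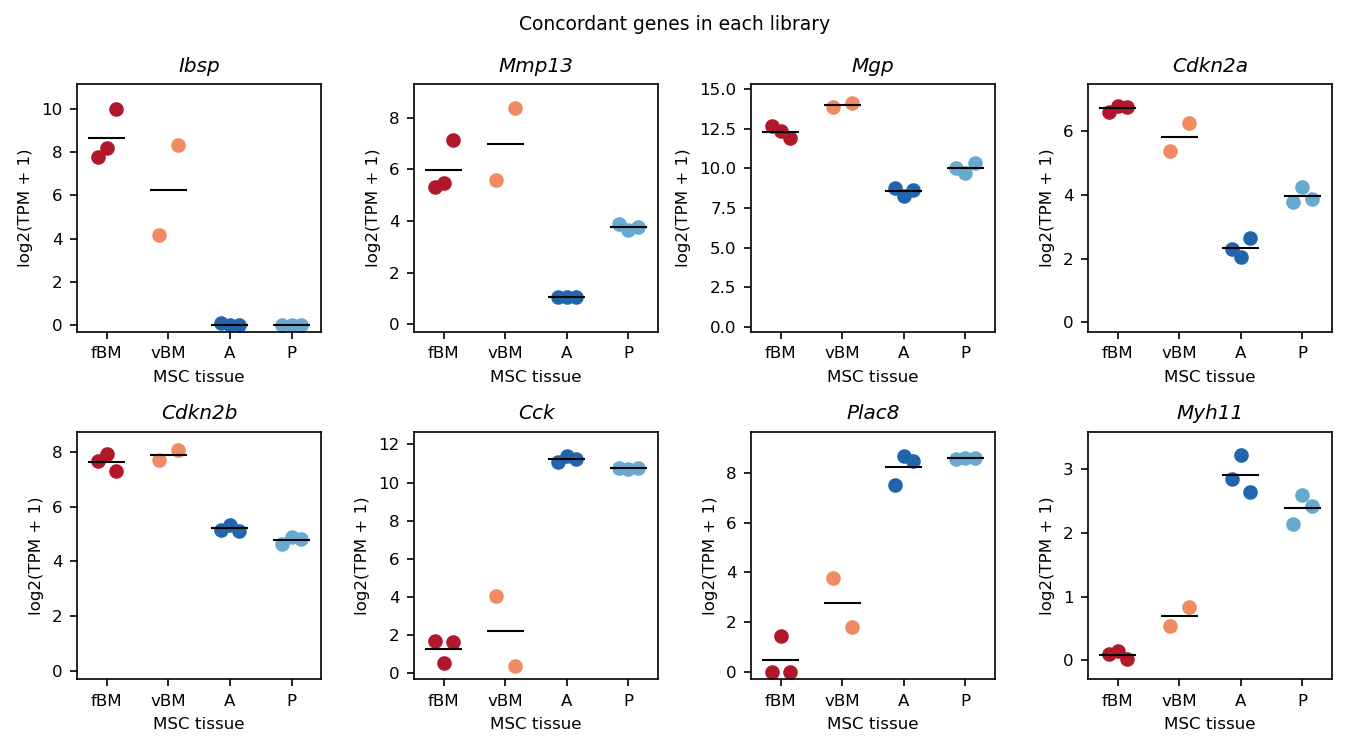
Each panel is 1 concordant gene, each point 1 library, the vertical axis is log2(TPM + 1) and the bar is the mean of a tissue on that scale. Ibsp, Mmp13, Mgp, Cdkn2a and Cdkn2b stood higher in fBM and vBM and Cck, Plac8 and Myh11 stood higher in A and P, with no overlap between the arms in any panel.

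Secreted signals of the marrow stroma were counted next. Of 17 tested Wnt ligands and secreted Wnt regulators, 13 were higher and 1 lower, against 24.8% and 22.4% of all genes. The lower one was Frzb, which binds Wnt proteins, with at most 2.40 TPM in bone marrow against 1.63 to 6.74 TPM (log2 difference −0.72 ± 0.25, adjusted p = 0.0346). Its call was lost with the replicate block (adjusted p = 0.0501) and without fBM-MSCs replicate 1 or 2, vBM-MSCs replicate 1 or 2, A-MSCs replicate 3, or P-MSCs replicate 1 or 2, with adjusted p from 0.0633 to 0.0982. Beside Wif1, the concordant ones, of a kind that made up 6.05% of all genes, were Sfrp4, which binds Wnt proteins, Dkk3, of the Dickkopf family, and Rspo2, which strengthens Wnt signals. Rspo2 read 8.26, 10.8 and 12.8 TPM in fBM-MSCs, 15.2 and 14.5 TPM in vBM-MSCs and 0 to 1.22 TPM elsewhere. Bone marrow libraries stood well above the rest, with P-MSCs above A-MSCs. Its log2 difference was 6.39 ± 0.34 (SE, adjusted p = 1.64e-07) and that of Dkk3 was 3.63 ± 0.22 (SE, adjusted p = 3.8e-07). Of 17 BMP ligands and antagonists, 7 were higher and none lower, beside the same 24.8% and 22.4%. The count higher was 3 when genes had to reach 1 CPM in at least 5 libraries, and 1 was called lower with limma on log2(TPM + 1), without fBM-MSCs replicate 3 and without vBM-MSCs replicate 2. Bmp2, which induces bone, read 10.4, 15.7 and 24.2 TPM in fBM-MSCs, 1.02 and 7.68 TPM in vBM-MSCs and 0.17 to 1.02 TPM elsewhere, so vBM-MSCs replicate 1 was level with P-MSCs replicate 2. The log2 difference was 4.13 ± 0.52 (SE, adjusted p = 6.18e-05). The antagonist Chrdl1 differed by 5.44 ± 0.76 (SE, adjusted p = 0.00013) and Bmp3 by 8.61 ± 1.23 (SE, adjusted p = 0.000336). Bmp3 was at 0 in vBM-MSCs replicate 1 and did not pass without vBM-MSCs replicate 2 (log2 difference 4.68, adjusted p = 1).

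Of 11 tested regulators and receptors of osteoclasts, 5 were higher and 1, Csf1r, was lower, where the shares over all genes were 24.8% and 22.4%, and 2 were lower without vBM-MSCs replicate 2. Il34, a ligand of the CSF1 receptor, read 52.6, 52.2 and 36.3 TPM in fBM-MSCs, 47.8 and 39.4 TPM in vBM-MSCs and 1.05 to 3.47 TPM elsewhere (log2 difference 4.60 ± 0.20, adjusted p = 6.4e-08). Csf1, the other ligand of that receptor, read 295.4 to 491.2 TPM in bone marrow and 303.3 to 357.5 TPM elsewhere and did not pass the threshold (log2 difference 0.05 ± 0.11, adjusted p = 0.75). Tnfrsf11b, the decoy receptor osteoprotegerin, was higher in vBM-MSCs, at 297.8 and 243.1 TPM, than in fBM-MSCs, at 126.8, 97.5 and 78.4 TPM, and read 40.5 to 70.4 TPM elsewhere. Ctsk, a collagen-degrading protease, differed by 1.67 ± 0.16 (SE, adjusted p = 8.85e-06). Acp5, the osteoclast phosphatase, read at most 1.66 TPM in bone marrow and 2.77 TPM elsewhere (log2 difference −0.60 ± 0.94, adjusted p = 0.632). It was called lower without vBM-MSCs replicate 2 (−4.28, adjusted p = 0.0394).

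Of 17 tested members of a list of blood stem cell niche factors, which also holds the osteoclast regulators Csf1, Il34, Tnfsf11 and Tnfrsf11b, 9 were higher and 2 lower, against 24.8% and 22.4% of all genes, and 3 were concordant higher, against 6.05%. These were Foxc1, Il34 and Tnfrsf11b. The count lower ranged from 1 without vBM-MSCs replicate 2 to 4 without fBM-MSCs replicate 3. Foxc1, a transcription factor of marrow reticular cells, read 1.36 to 3.61 TPM in bone marrow and 0.09 to 0.77 TPM elsewhere, 3.19 ± 0.40 (SE, adjusted p = 6.48e-05). Neither Cxcl12 nor Kitl passed the threshold. Cxcl12, which retains blood stem cells, read 178.1, 211.3 and 336.6 TPM in fBM-MSCs, 373.0 and 350.9 TPM in vBM-MSCs, 196.9 to 285.8 TPM in A-MSCs and 375.8 to 453.9 TPM in P-MSCs (log2 difference −0.21 ± 0.16, adjusted p = 0.312). Kitl, stem cell factor, read 6.55 to 24.8 TPM in bone marrow and 7.87 to 19.1 TPM elsewhere (log2 difference −0.28 ± 0.27, adjusted p = 0.414). Cxcl12 was called lower without fBM-MSCs replicate 3 (−0.37, adjusted p = 0.0157), and Kitl without fBM-MSCs replicate 1 (−0.59, adjusted p = 0.0199). Vcam1 and Il6 were the lower ones, at −0.50 ± 0.15 (SE, adjusted p = 0.0154) and −1.24 ± 0.22 (SE, adjusted p = 0.000709). Without vBM-MSCs replicate 2 the difference of Vcam1 was −0.36 and did not pass (adjusted p = 0.0725).

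Of 19 visceral mesenchyme factors, 8 were lower and 1 higher, against 22.4% and 24.8% of all genes. Tcf21, Gata4, Gata6, Gata3 and Tbx3 were concordant lower, against 6.0% of all genes. Gata6 read 0.04 to 1.29 TPM in bone marrow and 2.67 to 4.78 TPM elsewhere (log2 difference −3.32 ± 0.62, adjusted p = 0.00103), with exon sequence shared with 1010001N08Rik. Foxd1, a forkhead factor of stromal precursors, was the exception. It read 0.90, 0.55 and 1.01 TPM in fBM-MSCs, 6.30 and 4.48 TPM in vBM-MSCs and at most 0.10 TPM elsewhere (log2 difference 6.88 ± 0.74, adjusted p = 2.06e-05). Of 18 limb and skeletal patterning factors, 11 were higher and 2 lower (24.8% and 22.4% over all genes), and 2, Tbx15 (log2 difference 3.81 ± 0.31, adjusted p = 2.79e-06) and Prrx2 (log2 difference 1.93 ± 0.11, adjusted p = 2.91e-07), were concordant higher, against 6.05%. Without vBM-MSCs replicate 2, and also when genes had to reach 1 CPM in at least 5 libraries, 6 were higher. Shox2, a limb factor that was among those lost without that library, read 17.1, 21.6 and 27.1 TPM in fBM-MSCs and 0 and 1.10 TPM in vBM-MSCs, while Pax1, a factor of the vertebral column, read 0.28, 2.48 and 0.54 TPM in fBM-MSCs and 17.9 and 13.9 TPM in vBM-MSCs.

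The Hox genes encode position along the body axis. Of 26 tested, 12 were called higher and 9 lower in the contrast, against 24.8% and 22.4% of all genes, and 0 were concordant, against 6.05% and 6.0%. Hoxc8 had a contrast of 5.20 ± 0.40 (SE, adjusted p = 6.89e-06), a value that depends on the fit's prior count, and read 3.41, 2.10 and 2.51 TPM in fBM-MSCs, 19.2 and 17.8 TPM in vBM-MSCs, 18.5, 13.1 and 9.65 TPM in A-MSCs and 0 in all P-MSC libraries. P-MSCs were at 0 and fBM-MSCs were below A-MSCs, so the arms overlapped.

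**Figure D4:**
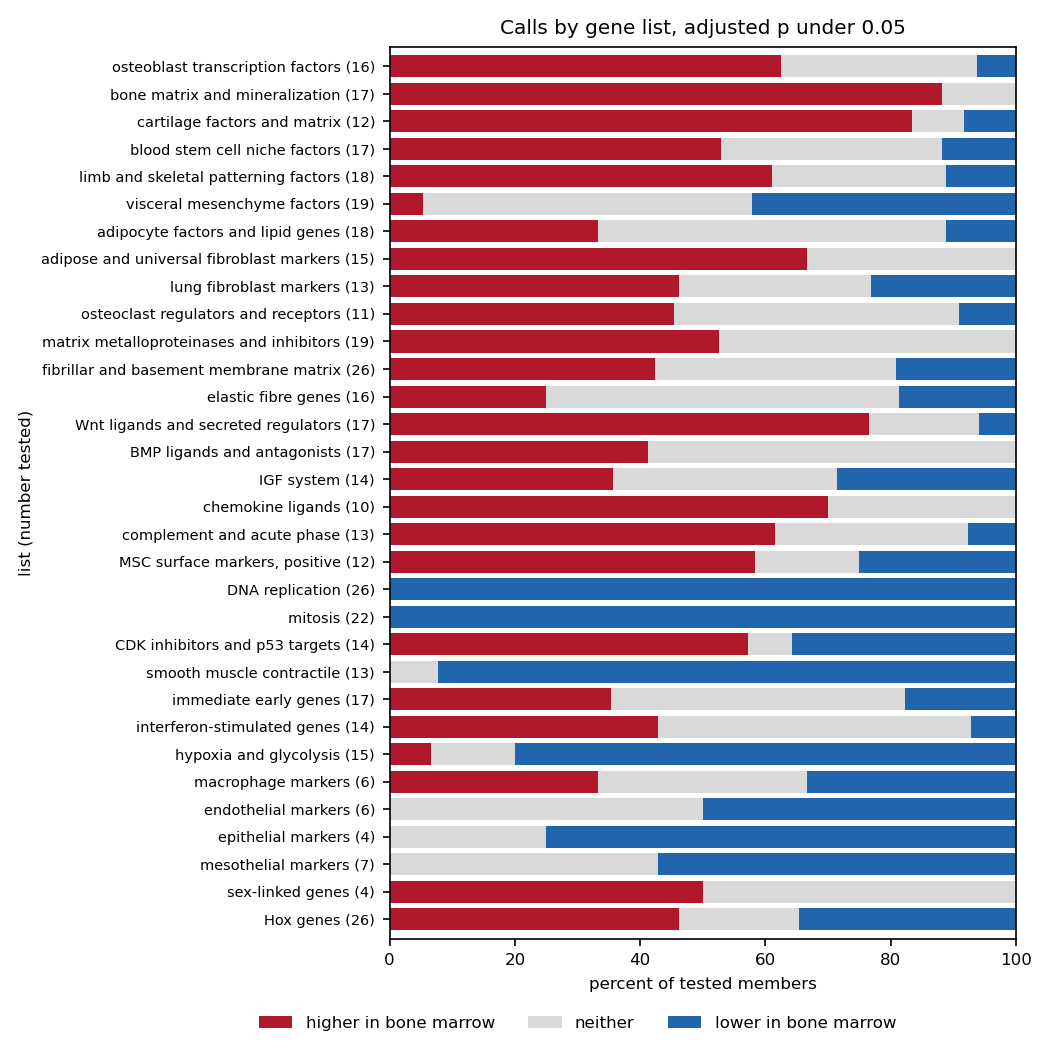
Each bar is a gene list with at least 4 tested members, their number in brackets, and shows the percent of them called higher, called neither way, or called lower in bone marrow MSCs at an adjusted p under 0.05. DNA replication and mitosis were lower in every tested member, bone matrix was mostly higher, and the Hox genes were split.

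Genes of cell division were lower in bone marrow MSCs. All 26 DNA replication genes were called lower, against 22.4% of all genes, and 22 were concordant lower, against 6.0%, with a median log2 difference of −1.97. All 22 mitosis genes were called lower and 19 were concordant, set against the same shares, with a median of −2.82. The same numbers, 26 and 22, were called lower under each other normalization, filter and test and with the replicate block. They also held without any 1 fBM-MSC, A-MSC or P-MSC library. The runs with the arms as 2 groups or with a 2-fold minimum were not counted by list. Birc5, which encodes the mitotic protein survivin, read 15.01, 23.3 and 15.7 TPM in fBM-MSCs, 26.6 and 23.4 TPM in vBM-MSCs, 130.2, 128.6 and 134.0 TPM in A-MSCs and 304.6, 281.5 and 309.5 TPM in P-MSCs. Replicates of a tissue were close to each other and the tissues followed in steps. The log2 difference was −3.21 ± 0.12 (SE, adjusted p = 6.4e-08). Plk1, a mitotic kinase, differed by −3.28 ± 0.21 (SE, adjusted p = 4.51e-07), and Ttk, a kinase of the spindle checkpoint, by −3.34 ± 0.53 (SE, adjusted p = 0.000351). Of the replication genes, Cdc6, which loads the helicase, differed by −3.82 ± 0.24 (SE, adjusted p = 4.4e-07), Mcm5, a subunit of that helicase, by −2.85 ± 0.14 (SE, adjusted p = 1.08e-07), and Orc1, of the origin complex, by −3.40 ± 0.49 (SE, adjusted p = 0.000171). The summed TPM of the mitosis list was 87.4 to 164.5 in bone marrow libraries, 684.6 to 735.7 in A-MSCs and 1412 to 1507 in P-MSCs. Fewer dividing cells and less of these RNAs per cell cannot be told apart in such bulk libraries.

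Inhibitors of the cell cycle moved in both directions. Of 14 tested CDK inhibitors and p53 targets, 8 were higher and 5 lower, where all genes gave 24.8% and 22.4%. Cdkn2b, which encodes the CDK4 inhibitor p15 (chr4:89306289-89311032, minus strand, 2 exons), read 202.2, 242.0 and 157.8 TPM in fBM-MSCs, 207.0 and 266.7 TPM in vBM-MSCs, 33.7 to 39.1 TPM in A-MSCs and 23.6 to 28.9 TPM in P-MSCs. Its neighbour Cdkn2a, which encodes p16 and Arf (chr4:89274473-89294619, minus strand, 3 exons in each transcript), read 97.2, 111.4 and 108.6 TPM in fBM-MSCs, 41.0 and 75.4 TPM in vBM-MSCs, 3.14 to 5.22 TPM in A-MSCs and 12.8 to 17.9 TPM in P-MSCs. The arms did not overlap at either gene. The log2 differences were 2.82 ± 0.11 (SE, adjusted p = 6.4e-08) for Cdkn2b and 3.29 ± 0.17 (SE, adjusted p = 1.37e-07) for Cdkn2a. Both promoters had a peak in all 4 lists, at 12.1-fold to 15.8-fold for Cdkn2a and 17.3-fold to 22.4-fold for Cdkn2b. Of the p53 targets, Trp53inp1 (log2 difference 1.47 ± 0.11, adjusted p = 1.86e-06), Ccng1 (log2 difference 0.93 ± 0.11, adjusted p = 5.49e-05), Mdm2 (log2 difference 0.71 ± 0.08, adjusted p = 3.35e-05) and Sesn2 (log2 difference 0.89 ± 0.14, adjusted p = 0.000411) were concordant higher, against 6.05% of all genes. Bax, a p53 target that promotes cell death, went the other way, at 202.1 to 295.1 TPM in bone marrow and 314.9 to 366.5 TPM elsewhere (log2 difference −0.34 ± 0.09, adjusted p = 0.0103). Trp53, which encodes p53, was lower too, at 92.0 to 144.3 TPM against 107.1 to 205.6 TPM (log2 difference −0.53 ± 0.09, adjusted p = 0.00065). The other lower members were Cdkn2d, Cdkn1b and Cdkn2c, at −1.21 ± 0.22 (SE, adjusted p = 0.000903), −0.96 ± 0.25 (SE, adjusted p = 0.00856) and −0.56 ± 0.14 (SE, adjusted p = 0.00742).

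**Figure D5:**
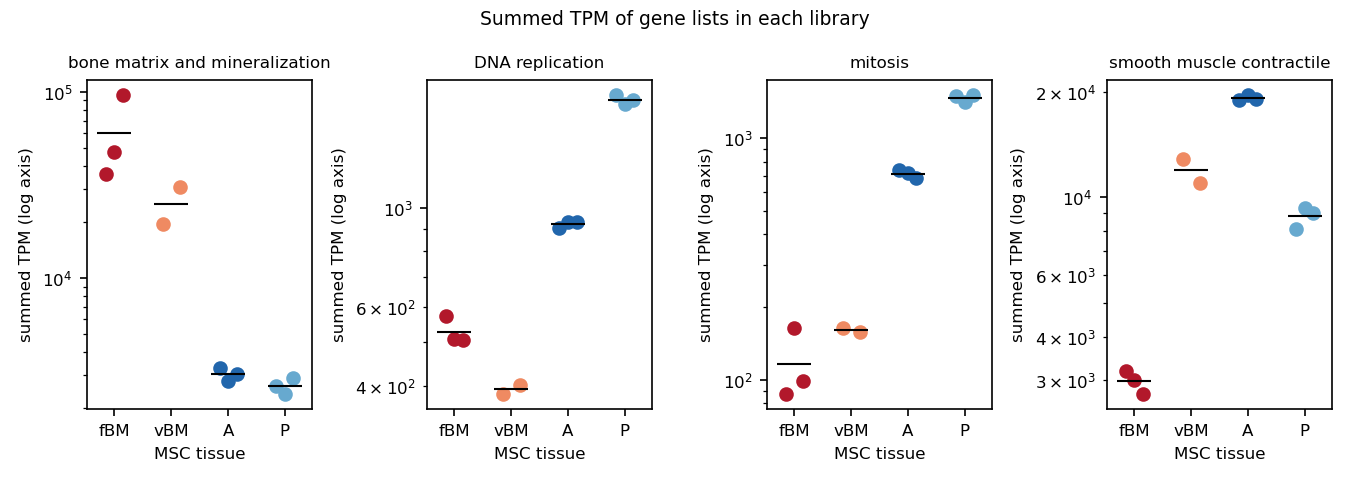
Each point is the summed TPM of a gene list in 1 library on a log axis, and the bar is the mean of a tissue. Bone matrix was at least 19464 TPM in every bone marrow library and at most 3287 TPM in the others, DNA replication and mitosis ran the opposite way with P-MSCs highest, and the smooth muscle sums of vBM-MSCs lay between those of P-MSCs and A-MSCs.

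Glycolysis genes were lower with smaller differences. Of 15 tested hypoxia and glycolysis genes, 12 were lower and 1 higher, against 22.4% and 24.8% of all genes, and 6 were concordant lower, against 6.0%. Hk2, the first enzyme of glycolysis, read 3.58 to 6.14 TPM in bone marrow and 10.98 to 14.6 TPM elsewhere (log2 difference −1.33 ± 0.12, adjusted p = 4.94e-06). Egln3, an oxygen sensor, differed by −2.89 ± 0.37 (SE, adjusted p = 7.53e-05), and Ankrd37, which shares exon sequence with Ufsp2, by −2.82 ± 0.26 (SE, adjusted p = 7.22e-06). Smooth muscle contractile genes were lower in 12 of 13 tested members, against 22.4% of all genes, and 3 were concordant lower, against 6.0%. Des encodes desmin, an intermediate filament of muscle, and read 0.70 to 1.68 TPM in bone marrow libraries, 163.3, 244.8 and 215.8 TPM in A-MSCs and 5.33, 8.61 and 6.94 TPM in P-MSCs (log2 difference −5.12 ± 0.24, adjusted p = 8.79e-08). It shares exon sequence with Gm15179. Myh11, the smooth muscle myosin heavy chain, differed by −4.82 ± 0.37 (SE, adjusted p = 1.71e-06). Cnn1, calponin, was not concordant, since vBM-MSCs at 254.5 and 112.0 TPM overlapped P-MSCs at 192.7 to 269.1 TPM. The 10 skeletal muscle markers summed to 9.21, 13.42 and 22.18 TPM in fBM-MSCs, 497.3 and 55.6 TPM in vBM-MSCs, 858.1 to 1030 TPM in A-MSCs and 713.4 to 780.8 TPM in P-MSCs. Of these, 2 were tested and 1 was lower, where 22.4% of all genes were. It was Acta1, the skeletal actin, at 8.54 to 495.3 TPM against 710.2 to 1028 TPM (log2 difference −3.74 ± 0.51, adjusted p = 0.00011). Myod1, Myog, Myf5 and Pax7, the factors that define muscle cells and their precursors, were at 0 in every library. The part of muscle cells in these differences was not tested.

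Of 19 matrix metalloproteinases and inhibitors, 10 were higher and none lower, against 24.8% and 22.4% of all genes, and 2 were lower without vBM-MSCs replicate 2. Mmp13, the collagenase of bone and cartilage (chr9:7272514-7283333, plus strand, 10 exons), whose promoter is shown above, read 39.1, 42.9 and 138.8 TPM in fBM-MSCs, 46.5 and 335.5 TPM in vBM-MSCs, 1.05 to 1.08 TPM in A-MSCs and 11.4 to 13.6 TPM in P-MSCs (log2 difference 4.99 ± 0.50, adjusted p = 1.2e-05). Mmp2, the gelatinase, differed by 2.70 ± 0.24 (SE, adjusted p = 4.55e-06), and the inhibitor Timp2 by 1.22 ± 0.13 (SE, adjusted p = 2.46e-05). Of 26 fibrillar and basement membrane genes, 11 were higher and 5 lower, and the same shares over all genes apply. Of this list, 5 were concordant higher and 1 lower, against 6.05% and 6.0% of all genes. Among them, Col6a2 (log2 difference 3.63 ± 0.35, adjusted p = 9.85e-06) and Col5a3 (log2 difference 3.60 ± 0.28, adjusted p = 1.88e-06) were concordant higher, and Nid1, which links basement membranes, was concordant lower (log2 difference −1.53 ± 0.20, adjusted p = 9.5e-05). Of 12 positive MSC markers, 7 were higher and 3 lower (24.8% and 22.4% over all genes). Cd9, a tetraspanin, read 1288, 1279 and 1093 TPM in fBM-MSCs, 329.1 and 418.9 TPM in vBM-MSCs and 173.3 to 206.6 TPM elsewhere (log2 difference 1.79 ± 0.08, adjusted p = 8.41e-08). Pdgfra, a receptor used to sort mesenchymal cells, went the other way, at 0.27 to 4.48 TPM in bone marrow and 5.74 to 7.93 TPM elsewhere (log2 difference −2.33 ± 0.26, adjusted p = 2.94e-05).

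Markers named for other tissues were counted in the same way. Of 15 adipose and universal fibroblast markers, 10 were higher in bone marrow MSCs and none lower, against 24.8% and 22.4% of all genes. Penk, an enkephalin precursor, read 82.2, 90.0 and 58.5 TPM in fBM-MSCs, 60.6 and 50 TPM in vBM-MSCs and 0.60 to 7.16 TPM elsewhere (log2 difference 4.84 ± 0.27, adjusted p = 2.21e-07). Of 18 adipocyte genes, 6 were higher, 2 lower and 0 concordant, where 24.8%, 22.4%, 6.05% and 6.0% of all genes were higher, lower, concordant higher and concordant lower. The count higher was 4 without vBM-MSCs replicate 2, and the count lower ranged from 1 to 3 when 1 library was left out. Cebpa, an adipocyte factor, was called higher (log2 difference 3.50 ± 0.43, adjusted p = 5.16e-05), and Lpl, lipoprotein lipase, lower (log2 difference −2.26 ± 0.71, adjusted p = 0.0211). Of 13 lung fibroblast markers, 6 were higher and 3 lower, beside the same 24.8% and 22.4%, with Tgfbi (log2 difference 5.84 ± 0.76, adjusted p = 8.38e-05) concordant higher and Npnt (log2 difference −2.89 ± 0.37, adjusted p = 6.66e-05), nephronectin, concordant lower, against 6.05% and 6.0%. The summed TPM of 9 mesothelial markers in the files was 4.15 to 24.1 in bone marrow libraries, 109.9 to 160.4 in A-MSCs and 76.2 to 98.8 in P-MSCs. The summed TPM of the epithelial markers was 2.18 to 12.9 in bone marrow libraries and 46.0 to 79.1 in the others, and 3 of 4 tested members were lower, against 22.4% of all genes. The count was 1 when genes had to reach 1 CPM in at least 5 libraries, and 2 to 4 under the other settings. These were keratin genes, of which Krt19 read 1.84 to 12.2 TPM in bone marrow and 17.1 to 59.8 TPM elsewhere (log2 difference −2.01 ± 0.34, adjusted p = 0.000541), Krt18 at most 0.36 against 0.72 to 27.05 TPM, and Krt8 0 against up to 21.02 TPM. Pooled over A-MSCs and P-MSCs, Krt8 was at least 411.8-fold higher outside bone marrow. Its lowest library there was at 0 and the median 5.69 TPM, and without P-MSCs replicate 2 it did not pass (adjusted p = 1). No epithelial marker was concordant lower, against 6.0% of all genes. The lung epithelial marker Sftpc and the basal cell marker Krt5 were at 0 in every library. The sum of the endothelial markers was 4.07 to 10.99 TPM in bone marrow libraries and 65.1 TPM in A-MSCs replicate 1, and 8.0 to 15.87 TPM in the other 5 non-bone marrow libraries. The part of such cells in the differences above was not tested.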

How the data were processed

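Per the labels and the study's methods, the authors made Smart-seq2 libraries without strand and ran RSEM with STAR against mm10, which gave the deposited expected count, TPM and FPKM of each gene in each library. FPKM was not used. The authors' ATAC-seq steps were Trim Galore and Bowtie, after which they removed duplicates with Picard, shifted reads for Tn5 and called MACS2 peaks, 1 list per tissue pooled over its samples. The deposited peak lists hold a score, a fold enrichment ratio over a genome-wide background, and the −log10 of a p and a q value for each summit. Versions of these tools are not given in the sources used here.

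Expected counts were rounded, and the genes tested were those that reached 1 CPM in 2 or more libraries, with edgeR 4.0.16 (TMM, quasi-likelihood F test, two-sided, Benjamini-Hochberg) in R 4.3.3, with all 11 libraries and 4 tissues in 1 fit. The study's own program for this step, AltAnalyze, was not used here. Alternatives used DESeq2 1.42.0, limma 3.58.1 on log2(TPM + 1), other filters and rules, the replicate number as a block, and each library left out. The script was tested on simulated data. No pair of libraries was alike within sampling noise. Intervals are exact at 95%, and a floor is 3 counts over an arm. Fold bounds compare counts scaled by library size. The fit held a mean for each of the 4 tissues. Its p-values therefore measure the spread between replicate libraries of a tissue, and not that between tissues of an arm.

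Named genes were the 12 concordant genes of each direction with the largest smallest pairwise difference, the 6 of each direction with the highest TPM, and up to 3 of each direction from each of 36 gene lists. Other genes, such as Runx2, Cxcl12, Kitl, Csf1, Bglap, Bglap2, Col1a1, Rspo2, Dkk3, Bmp2, Pth1r, Col10a1, Tnfrsf11b, Ctsk, Acp5, Foxc1, Tbx15, Prrx2, Timp2, Mdm2, Ccng1, Sesn2, Bax, Trp53, Cd68 and Cd14, and the Mmp13 promoter, were chosen after their values were seen. The comparison and the lists were chosen with earlier results of these data known.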

Additional observations from a re-analysis of the deposited data

Results flagged for a closer look

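Several leading genes also differed within an arm, tested in the same edgeR fit with adjusted p-values. Between the bone marrow sites, fBM-MSCs minus vBM-MSCs on the log2 scale was 5.43 ± 0.71 (SE) for Atp6v0d2, 3.34 ± 0.66 for Spp1 and 1.13 ± 0.10 for Fth1. It was −1.61 ± 0.25 for Mgp and −3.61 ± 0.96 for Plac8. Between the non-bone marrow tissues, A-MSCs minus P-MSCs was 2.50 ± 0.80 for Tcf21, 2.26 ± 0.73 for Msln, 1.37 ± 0.38 for Pi15, 1.10 ± 0.12 for Hmox1 and 0.38 ± 0.09 for Fth1. It was −1.21 ± 0.23 for Mgp and −4.21 ± 0.63 for Slc14a1. The adjusted p of these 12 differences ranged from 7.32e-05 for Hmox1 to 0.0443 for Tcf21.

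Other genes of the lists were called in opposite directions in different pairs of tissues. Il6, an inflammatory cytokine, and Zfp36, which degrades cytokine RNA, were lower in fBM-MSCs than in vBM-MSCs, by −3.75 ± 0.33 and −2.38 ± 0.15. The adipocyte gene Fabp4, the early response gene Egr2 and the basement membrane gene Nid2 were higher in A-MSCs than in P-MSCs, by 5.24 ± 0.58, 5.14 ± 0.57 and 2.59 ± 0.21. Figf, a vascular growth factor, differed by −3.38 ± 0.36 between the bone marrow sites and 2.77 ± 0.32 between A-MSCs and P-MSCs. For Hoxc8, Hoxc13, Hp and Mfap4 at least 1 tissue was at or near 0, so the fitted sizes depend on the prior count. A-MSCs minus P-MSCs was 12.51 for Hoxc8, 10.45 for Hoxc13 and 10.47 for Hp, the haptoglobin gene. The difference of fBM-MSCs from vBM-MSCs was 3.13 for Hoxc13 and −9.55 for Mfap4, an elastic fibre gene. The adjusted p of these 12 differences ranged from 3.85e-06 to 0.00469.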

How the results depend on the processing

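Under the alternatives, the counts of the contrast and of concordant genes stayed within 1.5 times of the values above except where the rule itself was changed. With the arms as 2 groups of 5 and 6 libraries, 2123 genes were higher and 1958 lower in the contrast. A minimum of 2-fold left 1417 higher and 911 lower genes in the contrast and 364 and 301 concordant genes. Asking only for 1 direction in the 4 pairs gave 2558 and 2306, and asking for libraries without overlap gave 1270 and 1274. Leaving out 1 library gave 2772 to 3080 higher and 2533 to 2850 lower genes in the contrast, 527 to 758 and 560 to 815 concordant ones, 2699 to 4329 between A-MSCs and P-MSCs and 610 to 1961 between fBM-MSCs and vBM-MSCs. Without vBM-MSCs replicate 2, 489 of the 757 higher and 498 of the 751 lower genes remained concordant. The share of concordant higher genes with a bone marrow promoter peak alone was 1.64% with every deposited peak, where all tested genes gave 0.28%, and the reverse share of lower genes was 4.89%, where all gave 2.40%, at a −log10 q of at least 20 and 0.84%, where all gave 0.44%, with every deposited peak. The causes were not tested.

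With the replicate number as a block, 2989 genes were higher and 2796 lower, 704 and 750 were concordant, and 1326 and 3863 differed within the arms. The numbers did not pair the libraries, since 1 of 15 same-numbered pairs had a correlation of deviations over 0.1, and 5 of 11 libraries correlated best with their own number. Of the values of named genes under alternatives, 3153 kept direction and side of the threshold, 81 lost the threshold, 3 gained it and 8 reversed. These were Mfap4, at 0.092 with limma on log2(TPM + 1) (adjusted p = 0.767), and 3 genes that did not pass, for which leaving out 1 library gave −0.059 to 0.15 for Csf1, −0.17 to 0.060 for Cd14 and −4.28 to 0.11 for Acp5. For genes without a count in an arm, depth allows a bound on the fold and not its size.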
